A study of Mus musculus with 6 samples.

Results

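The genes described here are 9 widely used markers of microglia, measured in the mouse cerebellum. They were taken by name from the deposited gene table, in which each has 1 entry matched by its Ensembl identifier, and they are 9 of 53715 genes. Cx3cr1, P2ry12 and Tmem119 were set apart as the homeostatic genes, C1qa, C1qb and C1qc as the complement genes, and Csf1r, Trem2 and Aif1 completed the set. Bulk RNA-Seq had been run on the whole cerebellum of male C57BL/6 mice of 4 weeks of age, 3 control mice and 3 Slc39a8-NSKO mice, and the methods give the background of the lines as C57BL/6J. The labels give the control genotype as WT, and the methods of the study describe Slc39a8 fl/fl mice as the parent line of the knockout. In Slc39a8-NSKO mice the floxed Slc39a8 gene, which encodes an importer of manganese, zinc and iron, was deleted by a Cre driven by the Synapsin I promoter. That promoter is active in neurons, so microglia were not the cells in which the gene was targeted. The methods count 3 mice per genotype as biological replicates, while a figure legend of the study speaks of technical triplicates, so the p-values measure the spread between these samples, which may be technical.

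Microglia are the resident macrophages of the brain, and they settle there from the embryonic yolk sac. They survive on signals through the receptor Csf1r, sense neurons through receptors such as Cx3cr1 and P2ry12, and take up debris and synaptic material, which the complement protein C1q can tag. In disease models they commonly lower P2ry12, Tmem119 and Cx3cr1 and raise lipid-handling and phagocytic genes downstream of Trem2. The comparison of homeostatic genes with complement and Trem2 therefore asks whether the microglial profile differed between genotypes. In bulk tissue, fewer microglia and less RNA per microglial cell cannot be told apart.

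C1qa, C1qb and C1qc, the chains of C1q, lie side by side on the minus strand of chromosome 4 (GRCm38), within 18675 bases from position 136880129 to 136898803. The gap between C1qb and C1qc is 3616 bases and that between C1qc and C1qa 2851 bases. Trem2 lies on the plus strand at chr17:48346401-48354147. The transcription factor PU.1 (Spi1), which drives the macrophage lineage, binds sites built on the letters GAGGAA. These letters, on either strand, were searched from 250 bases before to 50 bases after each gene start in RefSeq (GRCm38.p6). Windows were at hand for 6 of the 9 genes, and 4 of them (C1qb, C1qc, Aif1 and Trem2) held the letters, against 28.28% of 32851 windows of the same length. The stretches before C1qb, C1qc and Trem2 are shown because they hold these letters outside annotated exons. Capitals mark GAGGAA or its reverse complement TTCCTC, each sequence runs 5′ to 3′ on the strand of its gene, and a match is a description of the letters and no evidence of binding.
C1qb, chr4:136886201-136886450, minus strand: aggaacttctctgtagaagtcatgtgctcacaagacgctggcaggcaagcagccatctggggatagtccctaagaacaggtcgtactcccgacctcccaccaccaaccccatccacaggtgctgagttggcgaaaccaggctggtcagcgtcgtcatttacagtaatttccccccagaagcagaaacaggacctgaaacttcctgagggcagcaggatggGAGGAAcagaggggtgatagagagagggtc
C1qc, chr4:136893066-136893164, minus strand: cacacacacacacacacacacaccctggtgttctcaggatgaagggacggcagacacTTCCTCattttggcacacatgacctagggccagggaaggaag
Trem2, chr17:48346151-48346400, plus strand: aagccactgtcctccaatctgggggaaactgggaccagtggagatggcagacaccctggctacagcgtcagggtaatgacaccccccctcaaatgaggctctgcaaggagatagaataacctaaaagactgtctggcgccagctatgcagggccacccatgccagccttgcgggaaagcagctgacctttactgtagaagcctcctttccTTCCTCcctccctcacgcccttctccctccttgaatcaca
In C1qb the letters begin 30 bases before the gene start, and in Trem2 40 bases before it. The window of Cx3cr1 and that of P2ry12 did not hold the letters.

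The libraries held 14431260 to 20844267 counts on genes, the lowest in control 2 and the highest in control 1. Counts per 1000000 counts (CPM) below are scaled by TMM, a normalization that assumes most genes do not differ. The test throughout is the quasi-likelihood test of edgeR, two-sided, with Benjamini-Hochberg adjustment over 16330 genes tested, and a gene is called at an adjusted p below 0.05. It called 16 genes, or 0.098% of those tested, 4 of them higher and 12 lower in Slc39a8-NSKO. Slc39a8 itself was 4.78, 3.20 and 2.83 CPM in control 1 to 3 and 1.90, 2.05 and 2.18 CPM in Slc39a8-NSKO 1 to 3. The highest knockout mouse was below the lowest control, and the log2 fold change was -0.83 (SE 0.237, adjusted p = 0.534 by edgeR). The targeted gene was therefore lower in the labelled direction without passing the test over all genes, in a tissue where only neurons were targeted.

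None of the 9 microglia markers differed between genotypes at the threshold. All 9 were tested, 0 were called against 0.098% of all genes, and their adjusted p-values by edgeR ran from 0.671 to 0.998. By unadjusted p below 0.05, 1 of 9 (Csf1r) passed, against 5.39% of all genes, and DESeq2 and limma-voom also called 0 of 9. The log2 fold change was positive for 8 of 9, with a median of 0.05 beside 0.00 over all genes tested, of which 50.5% were positive. With Csf1r apart, the 95% intervals of the log2 fold changes all held 0. The intervals were narrowest for Csf1r and C1qa, whose counts were high, and widest for Aif1, with 14 to 31 counts per mouse.

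**Figure D1:**
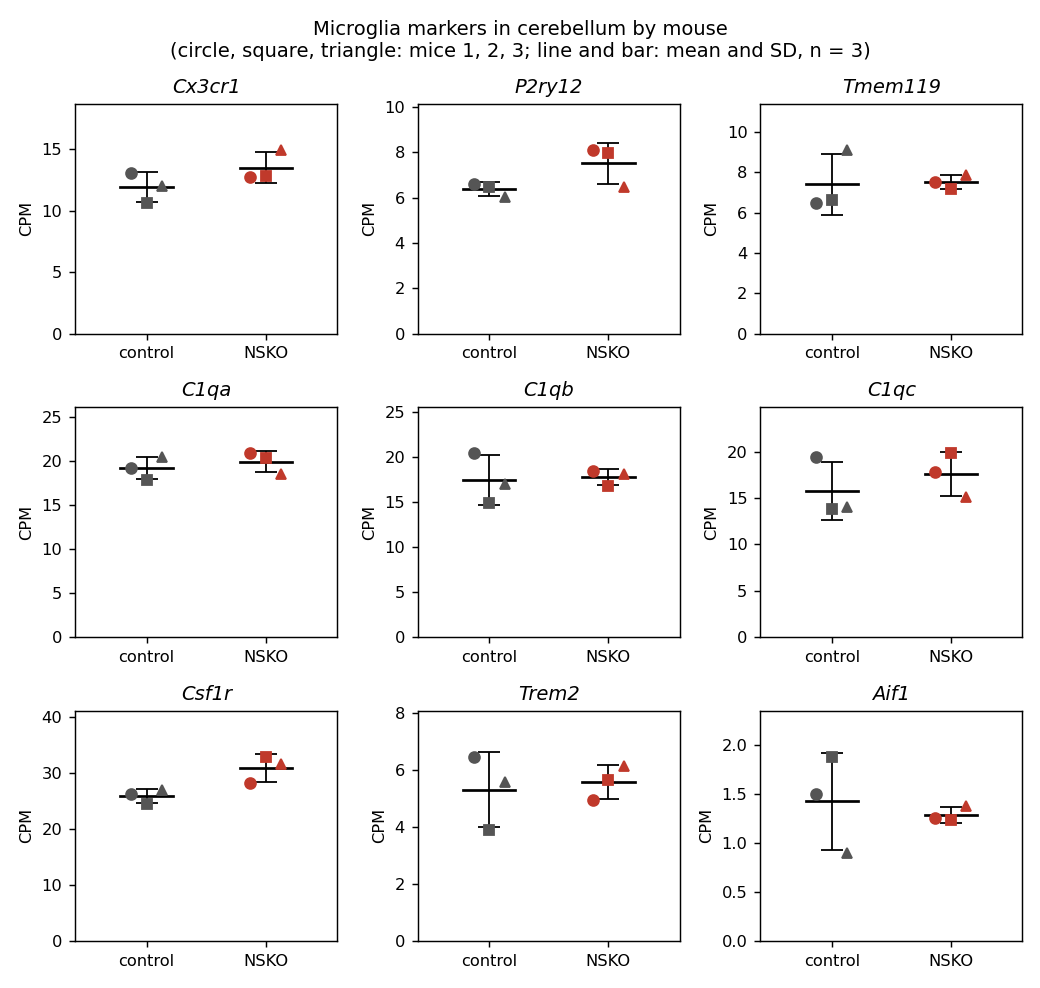
Expression of the 9 microglia markers in CPM (vertical axis from 0) in each of 3 control mice (grey) and 3 Slc39a8-NSKO mice (red), with the mean and SD of each group. The groups overlap in every panel but that of Csf1r, in which the Slc39a8-NSKO mice start at 28.2 CPM and the control mice end at 26.9 CPM.

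Among the homeostatic genes, Cx3cr1, the receptor for the neuronal chemokine Cx3cl1, was 13.1, 10.6 and 12.02 CPM in control 1 to 3 and 12.8, 12.8 and 14.98 CPM in Slc39a8-NSKO 1 to 3. Its highest value was in Slc39a8-NSKO 3, its lowest in control 2, and control 1 lay above 2 of the knockout mice. The log2 fold change was 0.18 (SE 0.115, 95% interval -0.07 to 0.42, adjusted p = 0.993 by edgeR). P2ry12, the purinergic receptor by which microglial processes follow released nucleotides, was 6.61, 6.47 and 6.04 CPM in control mice and 8.11, 7.96 and 6.48 CPM in Slc39a8-NSKO mice. The control mice were close together, and Slc39a8-NSKO 3 lay within their range while the other two knockout mice lay above it. Its log2 fold change was 0.24 (SE 0.141, 95% interval -0.07 to 0.54, adjusted p = 0.982 by edgeR). P2ry12 (chr3:59216272-59262871, minus strand) lies inside Med12l on the other strand and shares exonic bases with it. Med12l had 955 to 1561 counts per mouse against 93 to 162 for P2ry12, and whether the counting used strand was not given in the sources used here. The counts of P2ry12 were whole numbers in every mouse. Tmem119, a membrane protein of microglia, was 6.47, 6.61 and 9.12 CPM in control mice and 7.51, 7.19 and 7.86 CPM in Slc39a8-NSKO mice. Control 3 was the highest of all 6 mice and the other two controls the lowest, so the knockout mice lay inside the control range. The log2 fold change of Tmem119 was 0.03 (SE 0.153, 95% interval -0.30 to 0.36, adjusted p = 0.997 by edgeR).

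Among the complement genes, C1qa was 19.3, 17.9 and 20.5 CPM in control mice and 20.9, 20.4 and 18.6 CPM in Slc39a8-NSKO mice. Its groups overlapped, and the log2 fold change of 0.05 had one of the narrowest intervals of the set (SE 0.088, 95% interval -0.14 to 0.24, adjusted p = 0.994 by edgeR). C1qb was 20.5, 14.95 and 17.0 CPM in control mice and 18.5, 16.8 and 18.1 CPM in Slc39a8-NSKO mice. Both the highest and the lowest value were in control mice, and the log2 fold change was 0.02 (SE 0.111, 95% interval -0.22 to 0.26, adjusted p = 0.998 by edgeR). C1qc was 19.4, 13.8 and 14.1 CPM in control mice and 17.8, 19.8 and 15.1 CPM in Slc39a8-NSKO mice. Control 1 stood with the 2 higher knockout mice and above the other controls. The log2 fold change of C1qc was 0.14 (SE 0.137, 95% interval -0.15 to 0.44, adjusted p = 0.994 by edgeR), and it was 0.33 without control 1 and 0.051 without Slc39a8-NSKO 2. The control spread of C1qb and C1qc, a CV of 15.9% and 19.9%, was above the 5.76% and 6.05% that counting error alone gives, whereas that of C1qa, 6.65%, was near its counting error of 5.54%.

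Csf1r, the receptor tyrosine kinase for Csf1 and Il34 on which microglia depend, was the 1 marker whose groups did not overlap. It was 26.2, 24.5 and 26.9 CPM in control mice and 28.2, 32.9 and 31.6 CPM in Slc39a8-NSKO mice. Of all genes tested, 5.07% likewise had every Slc39a8-NSKO mouse above every control mouse. The log2 fold change of Csf1r was 0.25 (SE 0.080, 95% interval 0.08 to 0.43), a ratio of 1.06 to 1.34. The unadjusted p of 0.00689 by edgeR ranked 167 among the 16330 genes, and the adjusted p was 0.671. The exact permutation test gave p = 0.1, the smallest that 3 against 3 mice allow. The counts of Csf1r (chr18:61100598-61132149, plus strand) were not whole numbers in any of the 6 mice, that is, the authors' estimate divided reads between it and other genes. Csf1r shares exonic bases with Hmgxb3 on the other strand, which had 549 to 858 counts per mouse beside 352 to 641 for Csf1r.

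Trem2, the lipid-sensing receptor that signals through Tyrobp, was 6.47, 3.89 and 5.59 CPM in control mice and 4.96, 5.65 and 6.16 CPM in Slc39a8-NSKO mice. Both extremes were control mice, and the log2 fold change was 0.05 (SE 0.186, 95% interval -0.35 to 0.45, adjusted p = 0.995 by edgeR). Aif1, which encodes the calcium-binding protein Iba1 used to stain microglia, was 1.496, 1.88 and 0.90 CPM in control mice and 1.252, 1.23 and 1.38 CPM in Slc39a8-NSKO mice. The knockout mice were close together inside the wide control range, and Aif1 was the marker with a negative log2 fold change, -0.14 (SE 0.316, 95% interval -0.82 to 0.54, adjusted p = 0.994 by edgeR). For Aif1, the counting error of a single mouse was 20.4% at the mean control count, and its SE was the largest of the set. What size of difference could be detected at this depth was not tested.

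**Figure D2:**
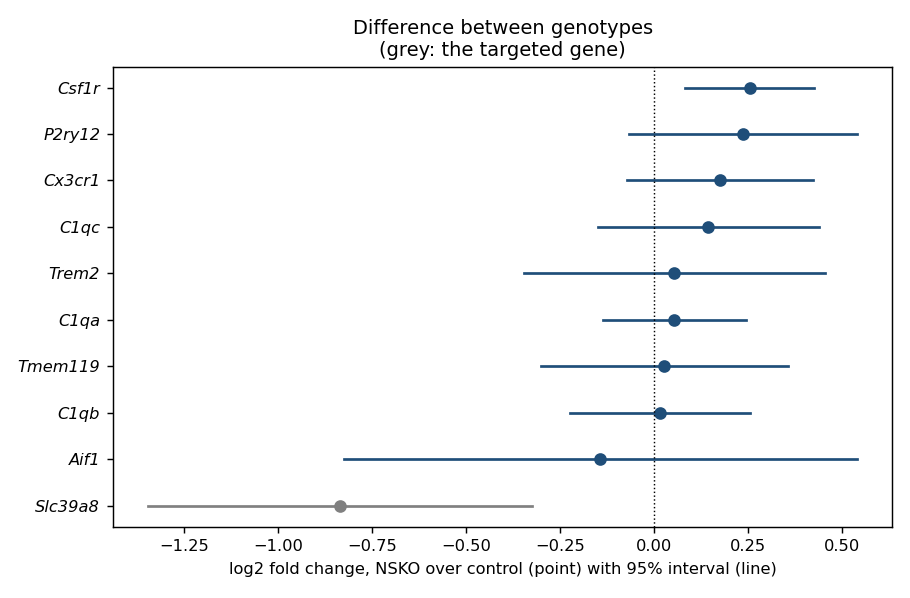
Log2 fold change of each microglia marker, Slc39a8-NSKO over control, with its 95% interval from the edgeR fit over all genes (horizontal axis), 3 mice per group. Apart from Csf1r (0.08 to 0.43), every marker's interval holds 0, while that of the targeted gene Slc39a8, in grey, lies below 0.

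Single mice weighed on the set as a whole. Control 2, also the shallowest library, was the lowest of 6 mice for 6 of 9 markers, and the summed level of the markers was 119.4, 100.7 and 112.2 CPM in control mice and 120.1, 124.8 and 120.3 CPM in Slc39a8-NSKO mice. Without control 2 the log2 fold change was positive for 6 of 9 markers, with a median of 0.06. Without control 1, the median was 0.23, without Slc39a8-NSKO 1 it was 0.14, and without control 3 or Slc39a8-NSKO 3 it was 0.10 in each case. Leaving out 1 mouse could therefore move this median from 0.05 to as much as 0.23. The log2 fold change of Csf1r stayed between 0.21 and 0.32 when each mouse was left out in turn, and its adjusted p by edgeR was never below 0.422 there.

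The levels of C1q and Trem2 relative to the homeostatic genes differed between genotypes by less than the spread of the mice. The log2 ratio of C1qa, C1qb and C1qc to Cx3cr1, P2ry12 and Tmem119, taken as geometric means of CPM within a mouse, was 1.26, 1.01 and 0.964 in control mice and 1.05, 1.07 and 0.912 in Slc39a8-NSKO mice. The group means were 1.08 ± 0.158 and 1.01 ± 0.0861 (SD, n = 3), a difference of -0.07, smaller than the SD of either group. The log2 ratio of Trem2 to the homeostatic genes was -0.35, -0.98 and -0.64 in control mice and -0.89, -0.68 and -0.57 in Slc39a8-NSKO mice. Its means, -0.66 ± 0.316 and -0.71 ± 0.165 (SD, n = 3), also differed by less than either SD. The signs of these differences turned without control 1, to 0.024 for C1q and 0.099 for Trem2, and that of Trem2 also turned without Slc39a8-NSKO 1, to 0.035. Without control 2 the differences were -0.10 and -0.22. A ratio for Csf1r was not planned, and it reuses the Csf1r values given above. The log2 ratio of Csf1r to the homeostatic genes was 1.67, 1.67 and 1.63 in control mice and 1.62, 1.87 and 1.79 in Slc39a8-NSKO mice. Its means, 1.66 ± 0.0248 and 1.76 ± 0.129 (SD, n = 3), differed by 0.10, which was more than the control SD and less than that of the knockouts, and the groups overlapped.

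Per length, the C1q genes were the most abundant of the markers. In transcripts per 1000000 transcripts (TPM) over the union of annotated exons, C1qa was at 62.8 ± 4.29, C1qb at 54.0 ± 6.30 and C1qc at 28.7 ± 4.64 (SD, n = 6 mice). Csf1r followed at 16.4 ± 1.93 TPM, then Tmem119 at 10.7 ± 1.48 TPM, Cx3cr1 at 9.41 ± 1.16 TPM and P2ry12 at 9.08 ± 1.16 TPM. Trem2 at 3.67 ± 0.648 TPM and Aif1 at 2.94 ± 0.676 TPM were the least abundant. Neighbours whose ranges over the 6 mice overlapped, and whose order was therefore not settled, were C1qa and C1qb, Tmem119 and Cx3cr1, Cx3cr1 and P2ry12, and Trem2 and Aif1. The place of Trem2 turned on the length used, since an annotated transcript of 4784 bases fills most of its union of 4946 bases while its principal transcript has 1088 bases. With principal transcripts Trem2 was at 11.8 ± 2.05 TPM, at rank 5 and above Tmem119 in all 6 mice, and C1qc at 32.6 ± 5.29 TPM came within the range of C1qb.

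**Figure D3:**
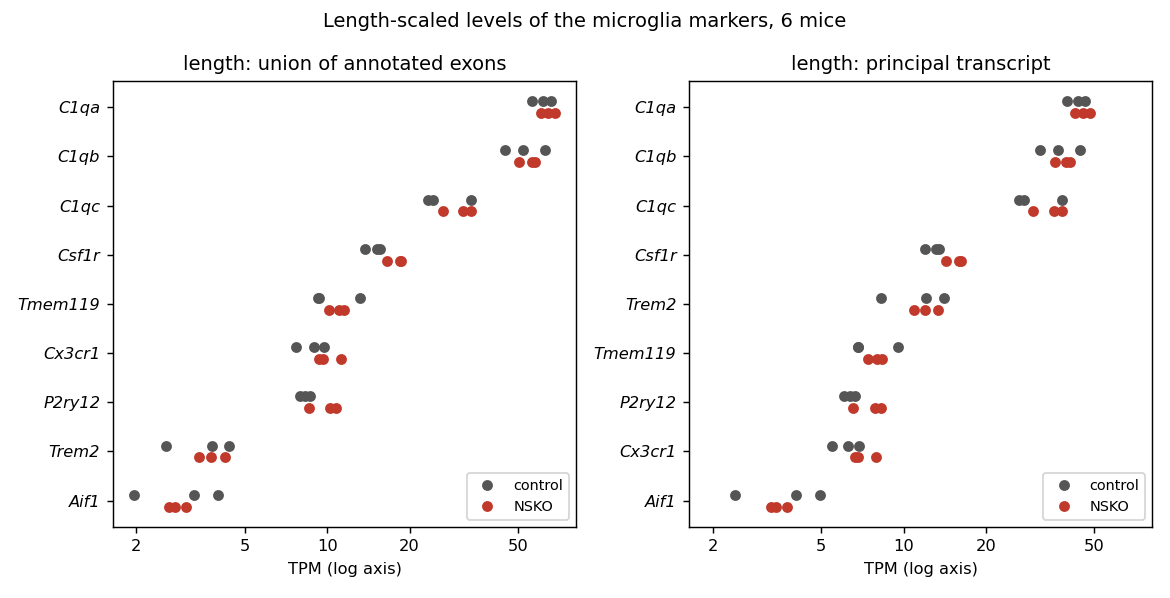
Length-scaled level of each marker in TPM (log axis) in 3 control (grey) and 3 Slc39a8-NSKO mice (red), with length taken as the union of annotated exons (left) or as the principal transcript (right). C1qa, C1qb and C1qc lead in both, and Trem2 moves from 3.67 to 11.8 TPM on average.

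Across the 6 mice the markers did not move as 1 block. Over the 36 pairs, Pearson's r of log2 CPM ran from -0.86 (Tmem119 and Aif1) to 0.81 (Cx3cr1 and Trem2), with a median of 0.24, and 25 pairs were above 0. Within C1q, r was 0.60 for C1qb and C1qc, 0.46 for C1qa and C1qc and 0.32 for C1qa and C1qb. These values rest on 6 mice that share library depth and normalization with each gene pair, and they are given as a description. The genes most like the mean standardized level of the 9 markers over the 6 mice were Ctso (a lysosomal cysteine protease, r = 0.995), Kctd18 (r = 0.995), Card9 (an adaptor of myeloid receptors, r = 0.992), Sparcl1 (a protein secreted by astrocytes, r = 0.990) and Shisal1 (r = 0.990). Over 16321 other genes, 320 reached an r of 0.9 or more, so such likeness was common with 6 mice. Tyrobp had r = -0.38 and Spi1 r = -0.55, although both are expressed by microglia.

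None of the related genes of microglia and their pathways was called either. The lists held 220 genes beside the markers, of which 174 were tested and 3 were called, beside 0.098% of all genes tested, namely the heart-muscle genes Myh6, Actc1 and Tnnt2. Of 18 other homeostatic microglia genes, all tested, 13 had a positive log2 fold change, the median was 0.12, and 5 had every Slc39a8-NSKO mouse above every control mouse, beside 5.07% of all genes. Itgb5, an integrin subunit also made by other brain cells, had a log2 fold change of 0.13 (adjusted p = 0.911 by edgeR), and Ctss, cathepsin S, one of 0.12 (adjusted p = 0.994). The largest log2 fold changes with separate groups in this list, named after their values were seen, were 0.55 for Ltc4s and 0.54 for P2ry6, both with adjusted p = 0.968 or more. Of 11 lineage factors, 7 were positive with a median of 0.04. Spi1 itself, at 26 to 37 counts per mouse, was at -0.17 (adjusted p = 0.994). Smad3 at 0.07, Mef2c at 0.04 and Tgfbr2 at 0.18, which are not restricted to microglia, were the most abundant of this list. Runx1 (0.94) and Nrros (0.47), again named after their values were seen, had separate groups and adjusted p = 0.867 each by edgeR.

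The ligands of the receptors gave no called gene among 12 of 14 tested, with a median log2 fold change of 0.04. Csf1, a ligand of Csf1r, was 26.9, 26.2 and 24.4 CPM in control mice and 23.5, 22.03 and 23.1 CPM in Slc39a8-NSKO mice. The genotypes did not overlap, a pattern with all knockout mice lower that held for 5.26% of all genes, and the log2 fold change was -0.18 (SE 0.077, unadjusted p = 0.0361, adjusted p = 0.908 by edgeR). Il34, the other ligand of Csf1r and mainly a product of neurons, was 7.29, 4.45 and 5.59 CPM in control mice and 6.96, 6.57 and 6.48 CPM in Slc39a8-NSKO mice, and the log2 fold change was 0.19 (adjusted p = 0.994). Csf1r and its ligand Csf1 thus had separate groups in opposite directions, neither past the threshold. Cx3cl1, the ligand of Cx3cr1, stood at 53.5 ± 2.83 CPM in control and 53.0 ± 0.988 CPM in Slc39a8-NSKO mice (SD, n = 3), and its interval of -0.15 to 0.12 was narrow. Of the signalling partners of Trem2, Tyrobp was at 0.11 (95% interval -0.23 to 0.45), and Hcst, at 1 to 3 counts per mouse, was too low to test. Apoe, a lipid carrier that binds Trem2, was at 0.03 (95% interval -0.08 to 0.14), Clu, a second one, at 0.17 (adjusted p = 0.934), Sirpa at 0.05 and Cd33 at 0.09.

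Beyond C1q, 22 of 26 complement and C1q-binding genes were tested, 10 were positive and 12 negative, and the median log2 fold change was -0.04. The proteases that C1q activates were scarce, C1ra at 8 to 11 and C1s1 at 5.59 to 23 counts per mouse, with log2 fold changes of -0.36 and -0.33 and wide intervals. C4b, which the activated protease cleaves, was at 9.95 ± 0.698 CPM in control and 8.91 ± 0.317 CPM in Slc39a8-NSKO mice (SD, n = 3; log2 fold change -0.16, adjusted p = 0.994). C3, the central complement protein, was 0.531, 0.348 and 0.321 CPM in control mice and 0.601, 1.18 and 0.744 CPM in Slc39a8-NSKO mice, from 5 to 23 counts per mouse. The groups of C3 did not overlap, a pattern with all knockout mice higher that held for 5.07% of all genes tested. The log2 fold change of C3 was 1.02 (95% interval 0.08 to 1.97, unadjusted p = 0.0351, adjusted p = 0.908 by edgeR). Its receptors gave -0.11 for C3ar1 and 0.13 for Itgam, with intervals that held 0. The neuronal pentraxin Nptx1 (0.04), the complement inhibitor Susd4 (0.10) and the C1q-binding protein C1qbp (0.00) were the most abundant of this list. The related secreted C1q-domain proteins of cerebellar neurons, Cbln1 and Cbln3, were at 0.02 and 0.05 and C1ql3 at 0.17.

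Genes of an activated state were below the filter, or were tested and not called. Of 24 disease-associated microglia genes 21 were tested, 0 were called, and the median log2 fold change was 0.04. The abundant ones, Apoe (0.03), Ctsb (0.04) and Ctsd (0.06), are also expressed by other brain cells. Cst7, at 0 to 2 counts per mouse, Itgax, at 0 to 5, and Clec7a, at 4 to 12, were below the filter in both genotypes. Of 16 inflammatory genes 4 passed the filter, and Tnf and Il1b had at most 3 counts in any mouse. Nfkbia, the inhibitor induced by NF-kB, was at -0.22 (adjusted p = 0.916), Il18 at -0.16 and Tlr4 at 0.02. The 12 interferon-response genes were all tested with a median of 0.02, and Ifi27 (0.03) and Ifit3 (-0.05) were among the most abundant.

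**Figure D4:**
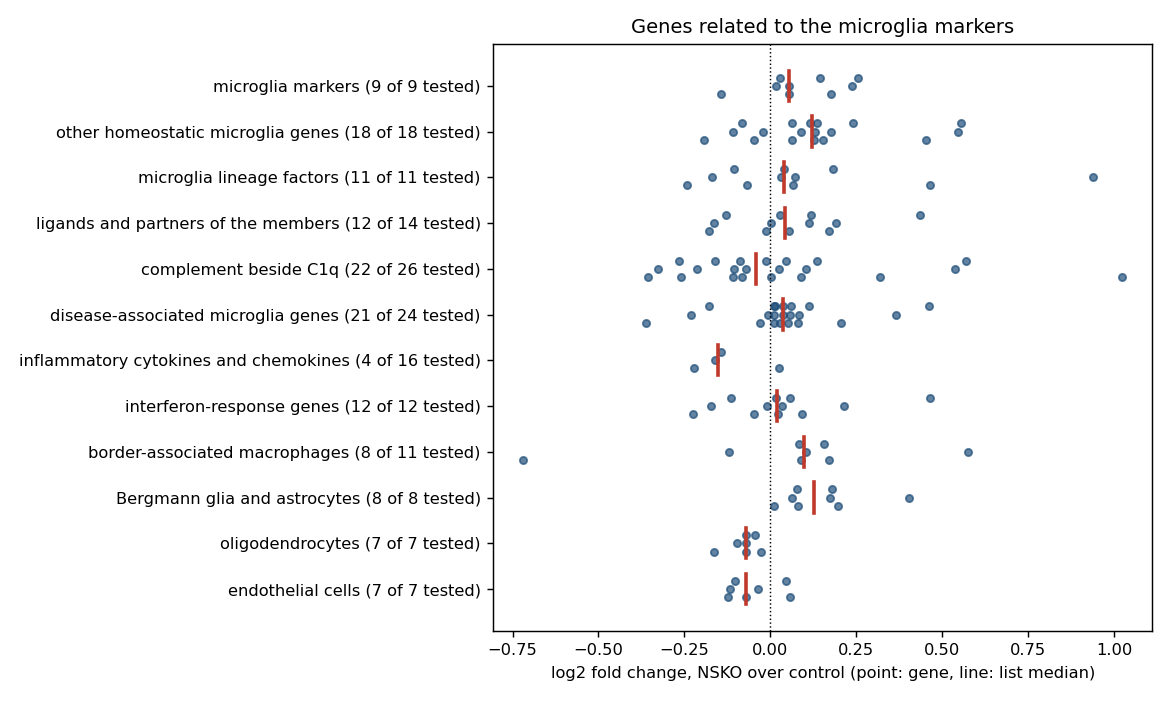
Log2 fold change, Slc39a8-NSKO over control (horizontal axis), of each tested gene in the lists named on the vertical axis, with the list median as a red line and the number of genes tested of the number listed. The microglia markers have a median of 0.05, and the medians of all lists drawn lie between -0.15 and 0.13.

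Markers of other cells were read beside the microglia markers. Most genes of border-associated macrophages, which share Csf1r and C1q with microglia, had few counts, though Stab1 had 106 to 206 per mouse. Of 11 genes 8 were tested, the summed level was 16.9 to 17.7 CPM in control and 17.4 to 20.5 CPM in Slc39a8-NSKO mice, and Stab1 (0.15), Mrc1 (0.09) and Clec10a (0.17) were the highest. Of the monocyte and neutrophil genes 3 of 10 were tested, with Fn1, which is not restricted to these cells, at 0.09, S100a9 at 0.61 (SE 0.425) and S100a8 at 0.37 (SE 0.470). The groups of S100a9 and S100a8 overlapped, with the highest value of each in Slc39a8-NSKO 3 (adjusted p = 0.994 each by edgeR). Of the lymphocyte genes 1 of 10 was tested. Among glia, the Bergmann glia and astrocyte genes had the direction of Csf1r. All 8 had a positive log2 fold change, beside 50.5% of all genes, 4 of 8 had separate groups with the knockout mice higher, beside 5.07% of all genes, and their summed level was 2568 to 2965 CPM in control and 3035 to 3048 CPM in Slc39a8-NSKO mice. Gfap, the intermediate filament of astrocytes, had the largest difference of these, a log2 fold change of 0.40 (SE 0.097, adjusted p = 0.301 by edgeR). Its adjusted p was 0.999958 by DESeq2 and 0.291 by limma-voom, and 0.0961 to 0.785 by edgeR with 1 mouse left out. It was 3.24e-09 in the edgeR fit without a filter on low counts, which called 178 genes against 16. Gfap correlated with the mean of the markers at r = 0.918. All 7 oligodendrocyte genes had a negative log2 fold change, with a median of -0.07 and none called, and their summed level overlapped, at 8341 to 9518 CPM in control and 7756 to 9367 CPM in Slc39a8-NSKO mice, and so did the endothelial genes, at 139.5 to 171.9 and 146.4 to 161.9 CPM. Of the 6 choroid plexus genes 5 were positive, with a median log2 fold change of 0.37 and a summed level, mostly Ttr, of 762 to 1097 CPM in control and 889 to 1535 CPM in Slc39a8-NSKO mice. Folr1, named after its values were seen, was the 1 of these with separate groups, at 0.96 (SE 0.219, adjusted p = 0.228 by edgeR). Its adjusted p was 0.317 by DESeq2, 0.361 by limma-voom and 0.00264 in the edgeR fit without a filter. The part of these other cells in the values of the microglia markers was not tested.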

How the data were processed

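Cerebellum RNA-Seq libraries were grouped by their titles into 3 control and 3 Slc39a8-NSKO mice. Per the labels and the study's methods, the authors ran FastQC, STAR and RSEM on mm10 and deposited expected counts per gene. The versions were not given in the sources used here. The labels name a directional kit, and the strand setting of the counting was not given in the sources used here. The table held 53807 entries, of which 92 spike-ins (at most 5 counts per mouse) were left out. For 5319 genes the count was not whole in some mouse. Names came from GENCODE M21, which matched 53620 of 53715 genes.

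Counts were rounded, filtered with filterByExpr and tested with edgeR 4.0.16 (R 4.3.3), TMM-scaled, after the code was tested on simulated data. Alternatives were DESeq2 1.42.0, limma-voom 3.58.1, other normalizations and filters, unrounded counts, a replicate block and leaving out each mouse. Chi-square per degree of freedom over all pairs of the 6 mice, within and across genotypes, was 4.01 to 9.63, so no library was counted as a copy. Intervals of 95% come from the edgeR fit. Depth was 14431260 to 20844267 counts, and counting errors cover sampling only. TPM used annotated exon lengths. Promoters came from RefSeq (GRCm38.p6).

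The markers and lists were chosen with earlier results of these data known. The genes named are the 9 markers, Slc39a8, the called genes or else the 3 most abundant of each microglia-related list, known partners of the markers, and the 5 genes most correlated with them. Others are named as chosen after their values were seen. Some genes that this rule names are not reported here.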

Additional observations from a re-analysis of the deposited data

How the results depend on the processing

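None of the 9 markers was called in any of 14 alternatives, by DESeq2, by limma-voom or with any mouse left out, so the calls on the markers did not depend on these choices. Csf1r kept a positive log2 fold change in all 14 (0.21 to 0.32), with its lowest adjusted p by edgeR, 0.241, when no filter was used. Slc39a8 stayed negative (-0.98 to -0.56), with a lowest adjusted p of 0.0764 by edgeR, also without a filter. The sign changed in some fits with 1 mouse left out for Tmem119 (-0.068 to 0.20), Aif1 (-0.37 to 0.080), C1qb (-0.080 to 0.16) and Trem2 (-0.12 to 0.23). It stayed positive for Cx3cr1 (0.099 to 0.25), P2ry12 (0.18 to 0.33), C1qa (0.0097 to 0.10) and C1qc (0.051 to 0.33). Over all genes, 16 were called, 37 by DESeq2, 178 without a filter, 47 with the replicate block and 9 (without Slc39a8-NSKO 2) to 38 (without control 1) with a mouse left out. Of the related lists, 3 genes were called, 1 by limma-voom, 8 without a filter (Gfap, Itpr1, Folr1, Kl and Ttr beside the heart-muscle genes, none of a microglia list), 0 with at least 10 counts in every mouse and 1 to 3 with a mouse left out. The cause of these shifts was not tested.

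Whether the replicate numbers pair the samples was not settled. The correlation of same-numbered deviations was 0.142 for number 1 and 0.116 for number 2, above that of any unlike numbers (at most 0.0665). For number 3 it was 0.0104, and control 3 and Slc39a8-NSKO 3 each correlated better with another number. With the replicate block 0 of 9 markers were called, and 4 list genes, the fourth being Gfap (adjusted p = 0.0318 by edgeR). Of the 9 ranks of level, 5 were kept with the longest transcript, 6 with the principal transcript and 7 to 9 with a mouse left out. Of the 5 genes most like the markers 0 to 3 remained with a mouse left out. Lengths by principal transcript were chosen after seeing the data. Depth limits the genes with few counts, Aif1 among the markers.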

Other observations

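Among genes of incoming monocytes, Ccr2, the chemokine receptor that marks monocytes and that resident microglia lack, was below the filter and had 4 counts in the control mice together and 28 in the Slc39a8-NSKO mice together. Its level was 0.0483, 0.0695 and 0.129 CPM in control mice and 0.351, 0.667 and 0.425 CPM in Slc39a8-NSKO mice, so every knockout mouse lay above every control mouse. That pattern held for 5.07% of the genes tested, a share taken over genes that passed the filter. The share among genes with as few counts as Ccr2 was not taken. Without the filter on low counts its log2 fold change was 2.50 (adjusted p = 0.252 by edgeR). Ccr2 was chosen after its values were seen, and other genes of the monocyte list, Ly6c2 at 0 to 6 and Plac8 at 0 to 2 counts per mouse, were too low to be read beside it.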
